A study of Mus musculus with 4 samples.

Results

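The chemokine and chemokine receptor genes were examined in sorted, activated mouse T cells. The family was taken as the protein-coding genes whose symbol is Ccl, Cxcl, Ccr or Cxcr followed by a number, together with Xcl1, Xcr1, Cx3cl1, Cx3cr1, Ccrl2 and Ackr1 to Ackr4, with Ccr6 and Ccr7 left out. This gave 58 of the 50600 genes counted, of which 37 were ligands, 16 were signalling receptors and 5 were atypical receptors. RNA-seq counts came from 4 libraries of 1 group, T cells of C57BL/6NJ mice kept as primary cells, and there was no second condition. Per the file headers the cells were Th0, activated, sorted and taken at 72 h. Th0 is a name for CD4+ T cells activated without cytokines that steer them to a helper subset. The labels give no treatment or allele beyond the strain, record no sex and give the age as unknown. The labels name the same donor for each library. Whether separate animals or cultures stand behind them is not given by the labels. Each SD and p-value below therefore measures only how these libraries differ, which may be technical in part.

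Chemokines are small secreted proteins that direct cell movement, and they are classed as CC, CXC, CX3C or XC by the spacing of their first cysteines. Their receptors span the membrane and signal through Gi proteins, while atypical receptors bind ligands without that signalling and often remove them. Activated T cells both release chemokines that draw other leukocytes and change their own receptors, which steers them to lymph nodes, inflamed tissue or barrier sites.

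Counts per library ranged from 34978213 to 118937382, and members took 0.0558% ± 0.00417 of them (SD, n = 4). Levels are given as TPM, computed here from the deposited counts and exonic lengths, so that genes of different length can be compared within a library. The length covers all annotated exons of a gene, so TPM is understated where the cells use only some of them. Which exons the cells use was not examined. The 5 T cell markers Cd3e, Cd3g, Cd4, Trac and Trbc2 were all at 1 TPM or more and summed to 4830 to 5070 TPM. Libraries stood apart in Xist, the RNA of the inactive X chromosome, which was at 278 and 316 TPM in replicates 1 and 2 and at 1.25 and 0.586 TPM in replicates 3 and 4. The labels, which name the same donor for each library and record no sex, do not account for this split.

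Promoter sequences are shown for Ccl3, for Ccr4 as the most abundant receptor, and for Cx3cl1 as the only chemokine outside the CC class at 1 TPM or more in every library. The sequences are RefSeq's on GRCm38.p6, limited to bases upstream of the annotated starts and written 5′ to 3′ on the gene's strand. Ccl3 is at chr11:83649379-83649628 on the minus strand, Ccr4 at chr9:114496563-114496794 on the minus strand inside the longer gene span of the files' annotation, and Cx3cl1 at chr8:94771930-94772008 on the plus strand. Capitals mark the NFAT core (GGAAA, or TTTCC on the other strand) and the AP-1 motif (TGANTCA), the motifs of transcription factors that act downstream of the T cell receptor.
Ccl3: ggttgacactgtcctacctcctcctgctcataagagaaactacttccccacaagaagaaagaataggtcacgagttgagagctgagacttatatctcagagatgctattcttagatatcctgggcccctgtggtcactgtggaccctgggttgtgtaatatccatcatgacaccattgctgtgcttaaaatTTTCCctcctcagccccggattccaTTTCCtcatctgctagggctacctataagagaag
Ccr4: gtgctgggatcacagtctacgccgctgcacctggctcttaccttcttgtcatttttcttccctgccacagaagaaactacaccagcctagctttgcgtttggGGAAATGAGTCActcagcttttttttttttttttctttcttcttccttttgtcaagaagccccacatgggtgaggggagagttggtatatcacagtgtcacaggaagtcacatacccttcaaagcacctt
Cx3cl1: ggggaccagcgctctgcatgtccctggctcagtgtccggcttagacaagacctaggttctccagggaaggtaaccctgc
In Ccl3 the NFAT core lay at bases -59 to -55 and -34 to -30, counted from the RefSeq start. In Ccr4 it lay at -148 to -144 and adjoined an AP-1 match at -143 to -137. The printed Ccr4 stretch ends short of the RefSeq start, so these positions do not count back from its last base. The Cx3cl1 stretch, at 79 bases shorter than the 250 of Ccl3 and the 232 of Ccr4, held neither set of letters. A match is a description of the letters and not a binding site.

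Of the 58 members, 16 reached 1 TPM in every library. These were 9 ligands, 6 receptors and 1 atypical receptor, or 27.6% of the family, against 49.9% of the 21764 protein-coding genes. Xcl1 reached this level in 3 libraries and Ccl9 in 2. A further 17 members had counts but stayed under 1 TPM, and 23 had a count of 0 in all 4 libraries (39.7% of members, against 29.6% of protein-coding genes). A count of 0 over all libraries together allows up to 3 counts, or 0.0103 CPM (counts scaled to the library total), and this limit covers counting error only. In RNA from a cell population, few cells with much of a transcript and many cells with little of it cannot be told apart.

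**Figure D1:**
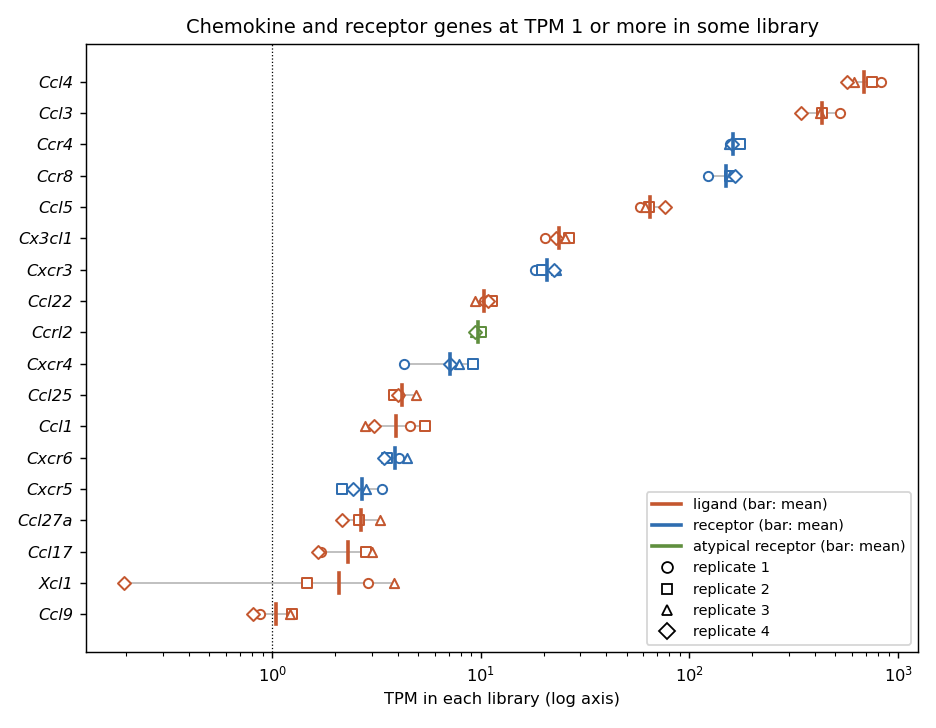
TPM on a log axis for the 18 chemokine and receptor genes at 1 TPM or more in some library. Symbols are replicates 1 to 4, bars are means, colours are roles, and the dotted line is 1 TPM. Ccl4 and Ccl3 lie above all other members in every library, and Ccr4 and Ccr8 overlap.

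The ligands were led by Ccl4 and Ccl3, also known as MIP-1 beta and MIP-1 alpha, which attract monocytes, natural killer cells and effector T cells. Ccl4 had 824, 748, 613 and 570 TPM in replicates 1 to 4, which averaged 689 ± 118 (SD, n = 4). Ccl3 had 524, 433, 421 and 344 TPM and averaged 431 ± 73.9. Their mean levels ranked 166 and 310 among the 21764 protein-coding genes. The lowest library of Ccl4 was above the highest of Ccl3, and both genes were highest in replicate 1 and lowest in replicate 4. Together they made up 92.6%, 90.6%, 89.8% and 87.9% of the summed ligand TPM.

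Ccl5, or RANTES, a ligand of Ccr1 and Ccr3 that effector T cells release, was the third ligand. It had 57.8, 64.3, 61.0 and 76.6 TPM, which averaged 64.9 ± 8.25 (SD, n = 4), and was highest in replicate 4, where Ccl3 and Ccl4 were lowest. With Ccl5 added, these CC chemokines held 95.6% ± 0.658 of the ligand TPM. The Ccl4 to Ccl3 ratio was 1.57, 1.73, 1.45 and 1.66 in replicates 1 to 4, a narrower range than that of either gene.

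Cx3cl1, or fractalkine, a membrane-tethered chemokine best known from endothelium and neurons, followed at 20.4, 26.4, 25.3 and 22.8 TPM. Ccl22, a ligand of Ccr4 known from dendritic cells and activated T cells, had 10.3, 11.3, 9.39 and 10.8 TPM. Ccl17, the other ligand of Ccr4, had 1.72, 2.83, 3.00 and 1.65 TPM, from only 10 to 53 counts per library. These 3 ligands are neighbours on chromosome 8, and the libraries of Ccl17 lay wholly below those of Ccl22.

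Ccl25, a thymic and intestinal chemokine, had 4.06, 3.85, 4.89 and 4.00 TPM. Ccl1, the ligand of Ccr8 that activated T cells and mast cells release, had 4.56, 5.39, 2.77 and 3.06 TPM. Ccl27a, a skin chemokine, had 2.57, 2.60, 3.28 and 2.15 TPM. The libraries of Ccl25 and Ccl1 overlapped, and Ccl27a is uncertain because 45.0% of the 50-base stretches of its exons also occur in other genes, Ccl27b among them.

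Xcl1, or lymphotactin, a ligand for Xcr1 on cross-presenting dendritic cells, had 2.88, 1.47, 3.83 and 0.194 TPM and was far lower in replicate 4 than in the other libraries. These values rested on 17, 28, 26 and 3 counts, and 10.8% of its 50-base stretches occur in another gene. Ccl9, a mouse chemokine of myeloid cells, had 0.873, 1.25, 1.22 and 0.812 TPM and so lay on both sides of 1 TPM.

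No CXC ligand reached 1 TPM in any library. Of the 12 genes, 6 had counts in at least 1 library. Cxcl10, an interferon-induced ligand of Cxcr3, had 0.944, 0.414, 0.685 and 0.451 TPM and was highest in replicate 1. Cxcl16, the membrane-bound ligand of Cxcr6, had 0.176, 0.409, 0.332 and 0.975 TPM, and 16.9% of its 50-base stretches occur in another gene. Cxcl2, a neutrophil attractant, had 0.0857, 0.199, 0.261 and 0.655 TPM, so that it and Cxcl16 were highest in replicate 4. Its relatives Cxcl1, Cxcl3 and Cxcl5 also stayed under 1 TPM, as did the CC chemokines Ccl20 and Ccl28.

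The 18 ligands with a count of 0 in all libraries included the monocyte and eosinophil attractants Ccl2, Ccl7, Ccl8, Ccl11, Ccl12 and Ccl24, and the lymphoid-tissue chemokines Ccl19, Ccl21a, Ccl21b, Cxcl12 and Cxcl13. Ccl6, Ccl26, Ccl27b, Cxcl9, Cxcl14, Cxcl15 and Cxcl17 complete this list. The zeros of Ccl21b, Ccl27b, Ccl21a and Ccl19 are uncertain, because every 50-base stretch of Ccl21b, and 98.1%, 71.6% and 52.0% of those of the other three, occur in other genes and reads mapped to several places were not counted.

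Among the receptors, Ccr4 and Ccr8 stood above the rest. Both are known from Th2 cells, regulatory T cells and skin-homing T cells. Ccr4 had 156, 174, 155 and 159 TPM, averaging 161 ± 8.86 (SD, n = 4), and Ccr8 had 123, 156, 156 and 165 TPM, averaging 150 ± 18.3. The ranges overlapped, with Ccr4 higher in replicates 1 and 2 and Ccr8 higher in replicates 3 and 4. Together they held 89.9% ± 0.647 of the receptor TPM.

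Cxcr3, the receptor of Th1 and effector T cells for Cxcl9 and Cxcl10, came next with 18.1, 19.7, 22.8 and 22.4 TPM, or 6.0% ± 0.478 of the receptor TPM. Cxcr4, the receptor for Cxcl12 on most lymphocytes, had 4.26, 9.12, 7.89 and 7.10 TPM and was lowest in replicate 1. Cxcr6, known from tissue-resident T cells, had 4.04, 3.54, 4.43 and 3.45 TPM. Cxcr5, which takes follicular helper T cells into B cell follicles, had 3.35, 2.16, 2.80 and 2.45 TPM and lay below Cxcr6 in all 4 libraries. Its highest library, at 3.35 TPM, was under the lowest of Cxcr6, at 3.45 TPM, a gap within counting error.

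The other 10 signalling receptors stayed under 1 TPM. Ccr2, a receptor of monocytes and some effector T cells, had 7, 65, 11 and 31 counts, and the eosinophil receptor Ccr3 had 1, 0, 0 and 12. Ccr9, a gut-homing receptor, had 0, 30, 0 and 2 counts, so nearly all of its signal was in replicate 2, and 20.1% of its 50-base stretches occur in other genes.
Cxcr1, a neutrophil receptor, had 0, 4, 5 and 32 counts, and its relative Cxcr2 had at most 1 count in a library. The neutrophil markers S100a8, S100a9 and Ly6g were at 0 in all libraries, and with Mpo they summed to at most 0.129 TPM. Cx3cr1 and Xcr1 had at most 8 and 9 counts in a library, and Ccr1 and Ccr10 had none.

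Of the atypical receptors, Ccrl2, which binds the attractant chemerin, had 9.92, 9.98, 9.38 and 9.40 TPM, a range that overlapped that of Ccl22. Ackr2, a scavenger of inflammatory CC chemokines, had 5 counts in replicate 4 and none elsewhere. Ackr1, Ackr3 and Ackr4 had a count of 0 in all libraries.

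In the order of mean levels of the 18 genes at 1 TPM or more in some library, 7 of the 17 neighbouring pairs did not overlap between libraries. The breaks lay below Ccl4, Ccl3, Ccr8, Ccl5, Cxcr3, Ccrl2 and Cxcr6. Those below Ccrl2 (9.38 against 9.12 TPM for Cxcr4) and below Cxcr6 (3.45 against 3.35 TPM for Cxcr5) were within counting error. The other 10 pairs overlapped, among them Ccr4 with Ccr8 and Cx3cl1 with Cxcr3.

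Setting each receptor beside the ligands it is known to bind showed both sides present for some pairs and 1 side missing for others. Both sides were at 1 TPM or more in every library for Ccr4 with Ccl22 and Ccl17, and for Ccr8 with Ccl1. In these pairs the receptor was the more abundant. Cxcr3, Cxcr4, Cxcr5 and Cxcr6 were present while their ligands Cxcl9, Cxcl12 and Cxcl13 had a count of 0 and Cxcl10 and Cxcl16 were under 1 TPM. On the other side, Ccl3, Ccl5, Cx3cl1, Ccl25 and Ccl27a were present while Ccr1, Ccr3, Cx3cr1, Ccr9 and Ccr10, receptors that bind them, were under 1 TPM.

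For 12 pairs of members, differences of log2(TPM + 0.1) were taken within each library, a scale that understates differences of low genes. Ccl4 minus Ccl3 was 0.68 ± 0.11 (SD, n = 4), Ccl3 minus Ccl5 was 2.72 ± 0.42, and Ccl4 minus Xcl1 was 8.80 ± 1.56. Each of these was positive in 4 of 4 libraries.
Among receptors, Ccr4 minus Ccr8 was 0.11 ± 0.18, positive in 2 of 4 libraries, and its p was 0.5 in a two-sided exact permutation test that flips the signs of the differences (0.5 adjusted). Its 4 values ran between -0.05 and 0.33. Cxcr3 minus Ccr4 was -2.95 ± 0.19, Cxcr4 minus Cxcr3 was -1.58 ± 0.39 and Cxcr5 minus Cxcr4 was -1.33 ± 0.71. All these were negative in 4 of 4 libraries, and the last varied most, from -0.34 in replicate 1 to -2.03 in replicate 2.
Between ligands and receptors, Ccl22 minus Ccr4 was -3.93 ± 0.07, the narrowest spread of the 12 pairs. Ccl1 minus Ccr8 was -5.26 ± 0.55 and Cxcl10 minus Cxcr3 was -4.90 ± 0.56, all negative in 4 of 4 libraries. Xcl1 minus Xcr1 was 3.49 ± 1.69, positive in 4 of 4. Ccr1 had a count of 0, and Ccl3 was at least 5157-fold higher in every library against a limit of 3 counts per library.
For the other 11 pairs the exact permutation test gave the smallest p that 4 libraries allow (2 of 16 sign patterns), which was 0.134 after Benjamini-Hochberg adjustment over the 15 pairs tested. No pair could therefore pass 0.05 in this design, and the test does not separate small from large differences.

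**Figure D2:**
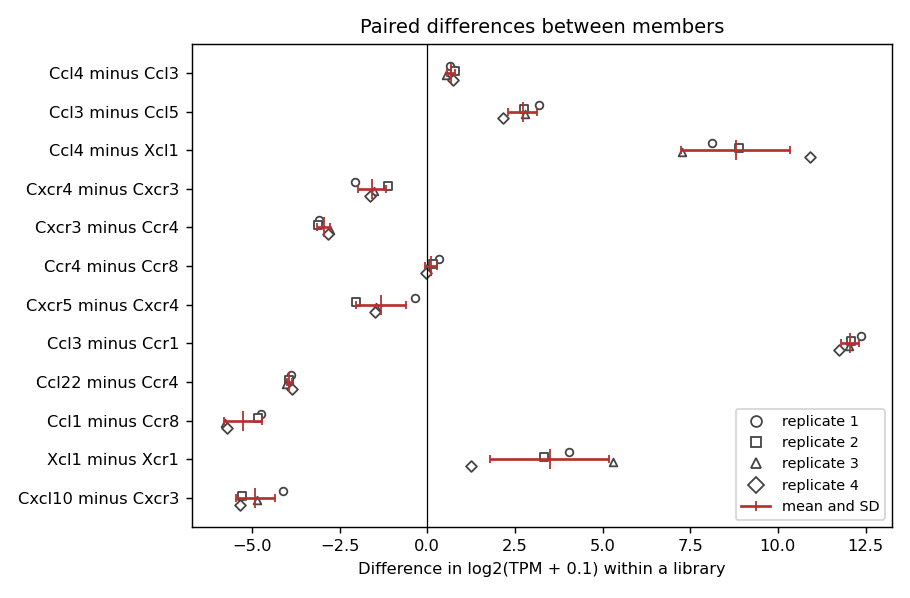
Difference in log2(TPM + 0.1) between 2 members within each library, for 12 pairs. Symbols are replicates 1 to 4, and red bars are the mean and SD. Ccr4 minus Ccr8 crosses 0, while the other 11 pairs keep 1 sign in all 4 libraries.

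Summed over the family, ligands had 1456, 1303, 1152 and 1039 TPM and receptors 309, 365, 349 and 361 TPM, a ratio of 4.71, 3.57, 3.30 and 2.88. The medians ran the other way. The ligand median minus the receptor median, in log2(TPM + 0.1), was -0.76, -0.72, -1.21 and -1.26, averaging -0.99 ± 0.29 (SD, n = 4). The ligand median was -3.32 to -3.22 on this scale, which is at or near the value of a gene with no counts, so the size of the difference rests on the pseudocount.

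Only spread between libraries could be tested across the whole table. Of the 58 members, 22 passed the filter on low counts. Ccl4 and Ccl3, the 2 members called, varied more than is usual at their level, with adjusted p = 0.000406 and 0.000508 in edgeR's goodness-of-fit test on trended dispersions, and the background was 0.463% of the 14269 genes tested. CPM values were 1.60-fold apart between the highest and the lowest library for Ccl3 and 1.52-fold for Ccl4. On the log2 scale, Ccl4 lay 0.34, 0.11, -0.19 and -0.26 from its mean in replicates 1 to 4, and Ccl3 0.36, 0.00, -0.05 and -0.31.
Both calls rested on the libraries at the ends. Without replicate 1 the adjusted p in edgeR was 0.229 for Ccl4 and 0.641 for Ccl3, and without replicate 4 it was 0.069 and 0.288. With 1 common dispersion for all genes neither was called (adjusted p in edgeR 0.274 and 0.269), and Cxcl16 and Ccl1 were the 2 members called (0.000217 and 0.0154), on a background of 6.69% of genes. The background was 0.27% without replicate 1, 0.325% without replicate 2, 0.452% without replicate 3 and 0.339% without replicate 4. It was 0.456% with DESeq2 size factors, 0.498% with DESeq2 dispersions and 0.311% with no filter, settings under which the same 2 members, Ccl4 and Ccl3, were called.
Other measures moved with the same libraries. The rank correlation of each gene's deviation with its GC content, over 12159 protein-coding genes, was -0.26, 0.01, 0.07 and 0.26 in replicates 1 to 4. In TPM, both genes were higher in both libraries with high Xist than in the others. With each library corrected for GC content and length, the span was 1.45-fold for Ccl4 and 1.46-fold for Ccl3, and both remained called (adjusted p in edgeR 7.81e-05 and 0.000282, background 0.575%). Ccl3 then lay 0.20, 0.04, 0.10 and -0.34 from its mean, so its replicate 3 was above replicate 2. The part of Xist in this spread was not tested.

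**Figure D3:**
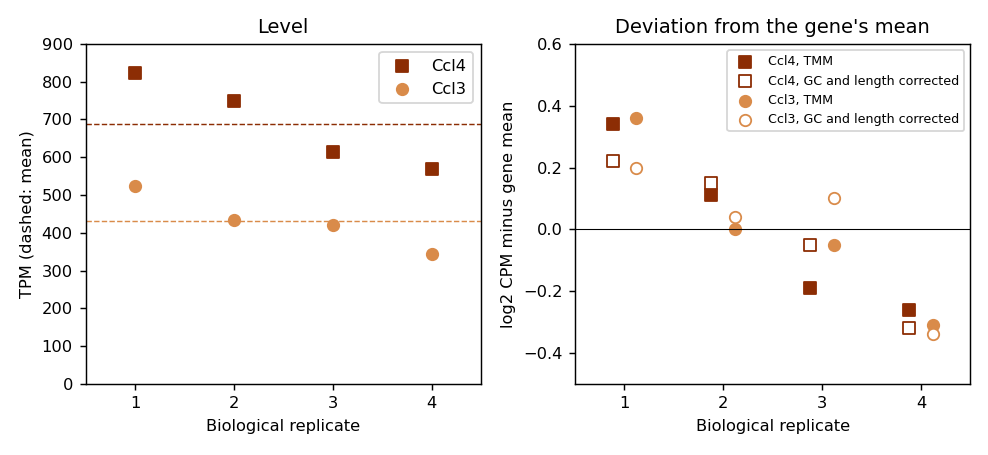
Ccl4 and Ccl3 in the 4 libraries, as TPM (left, dashed lines are means) and as deviation of log2 CPM from the gene's mean (right), with filled symbols for TMM scaling and open symbols after GC content and length correction. Both genes are highest in replicate 1 and lowest in replicate 4, before and after the correction.

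**Figure D4:**
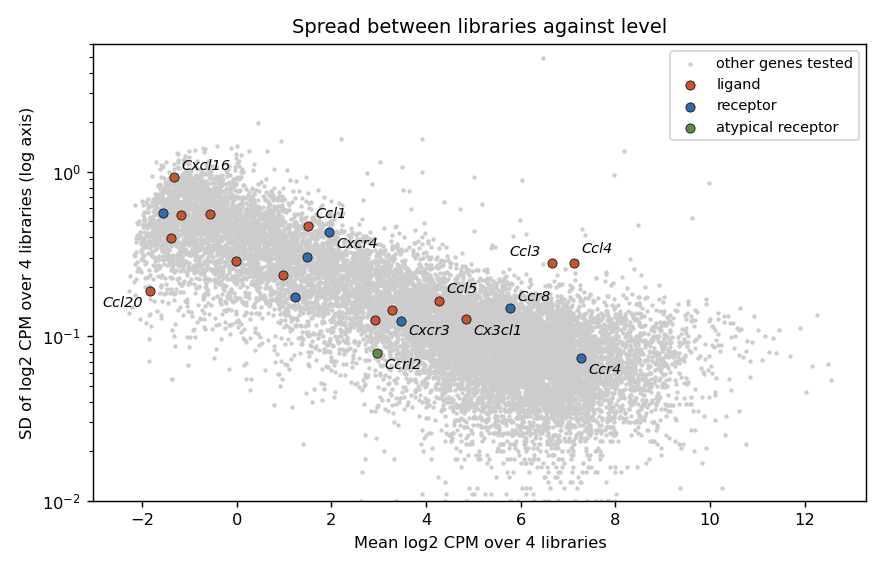
SD of log2 CPM over the 4 libraries (log axis, starting at 0.01, below which a few genes lie) against the mean, for all genes tested, with ligands, receptors and the atypical receptor in colour. Ccl3 and Ccl4 have an SD of 0.28 each at a high mean, where Ccr4 has 0.07.

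The other 20 members tested were not called. The median SD of log2 CPM of the tested members was 0.26, against 0.12 for all genes tested, and members ranged from 0.07 for Ccr4 to 0.93 for Cxcl16. Many members that passed have low counts, where the SD of all genes was larger, as the plot of spread against level shows. Ccr8 spanned 1.27-fold, Ccl5 1.28-fold and Ccr4 1.13-fold between the highest and the lowest library.

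Markers of other cell types that could bring in chemokine RNA summed to a few TPM or less, apart from Cd8b1. The summed level was 2.19 to 4.30 TPM for 4 natural killer markers, of which Klrd1 had 1.87 to 4.09 TPM. It was 1.84 to 3.49 TPM for 5 macrophage and monocyte markers, with Lyz2 at 0. Among these, Adgre1 had 1.1 to 1.8 TPM and Cd14 had 0.576 to 1.69 TPM. For 4 dendritic cell markers the sum was 2.58 to 2.83 TPM, with Itgax and Clec9a at 0 and Zbtb46 at 2.47 to 2.67 TPM. All 4 mast cell and basophil markers were at 0. The 4 stromal and endothelial markers summed to 3.85 to 4.75 TPM, with Cdh5 at 0, Pdgfrb at 2.72 to 3.44 TPM and Col1a1 at 0.891 to 1.43 TPM. Cx3cl1 had 20.4 to 26.4 TPM, and the part of stromal or endothelial cells in its level was not tested. The list for CD8 T cells holds 2 genes, of which Cd8a had 0.511, 0.234, 0.0636 and 0.261 TPM and Cd8b1 had 17.6, 21.4, 17.5 and 29.2 TPM. Cd8b1 alone thus made up nearly all of the sum of 17.5 to 29.5 TPM, and Cd8a, under 1 TPM throughout, was highest in replicate 1. The part of CD8 T cells in the levels was not tested. The B cell markers summed to 2.24 to 5.51 TPM, with Cd79b at 1.46 to 3.10 TPM. The epithelial ones summed to 3.17 to 3.47 TPM with Krt8 at 0, so that all of this sum was Epcam.

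Of 32 genes that carry or limit chemokine receptor signals, 31 were at 1 TPM or more in every library, and Rgs18 was the exception. The most abundant was Rac2, a GTPase of the actin cytoskeleton in blood cells, with 706 ± 47.4 TPM (SD, n = 4). The G protein subunits Gnb2, Gnai2 and Gnb1 had 525 ± 36.3, 486 ± 20.1 and 365 ± 14.1 TPM. Grk2, a kinase that desensitizes receptors, had 468 ± 32.7 TPM, and the polarity GTPase Cdc42 had 429 ± 12.2 TPM. None of the 31 tested was called variable in edgeR's goodness-of-fit test, and 2 of them, Rgs10 and Pik3r5, had an unadjusted p under 0.05, beside 812 of all 14269 genes.

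Many chemokine genes lie in clusters, taken here as members at most 500 kb apart, and levels differed within them. In the cluster on chromosome 11 from 83525778 to 83664683 (mm10), Ccl5, Ccl3 and Ccl4 were at 1 TPM or more in every library, Ccl9 was near 1 TPM and Ccl6 had a count of 0. Ccl3 occupies 83647844 to 83649355 on the minus strand and Ccl4 83662584 to 83664683 on the plus strand. In the cluster from 82035571 to 82305690 on the same chromosome, Ccl1 was present and its 5 neighbours Ccl2, Ccl7, Ccl11, Ccl12 and Ccl8 had a count of 0.
All 3 members of the cluster on chromosome 8, from 94745590 to 94812036, were present, namely Ccl22, Cx3cl1 and Ccl17. On chromosome 9, from 123678439 to 124113557, lie the 6 receptor genes Ccr9, Cxcr6, Xcr1, Ccr1, Ccr3 and Ccr2, of which Cxcr6 alone reached 1 TPM. Ccr8 lies outside it, from 120092114 to 120094906, next to Cx3cr1, and Ccr4 lies from 114490316 to 114504916. None of the 5 CXC ligands from 90759360 to 90905938 on chromosome 5 reached 1 TPM.

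**Figure D5:**
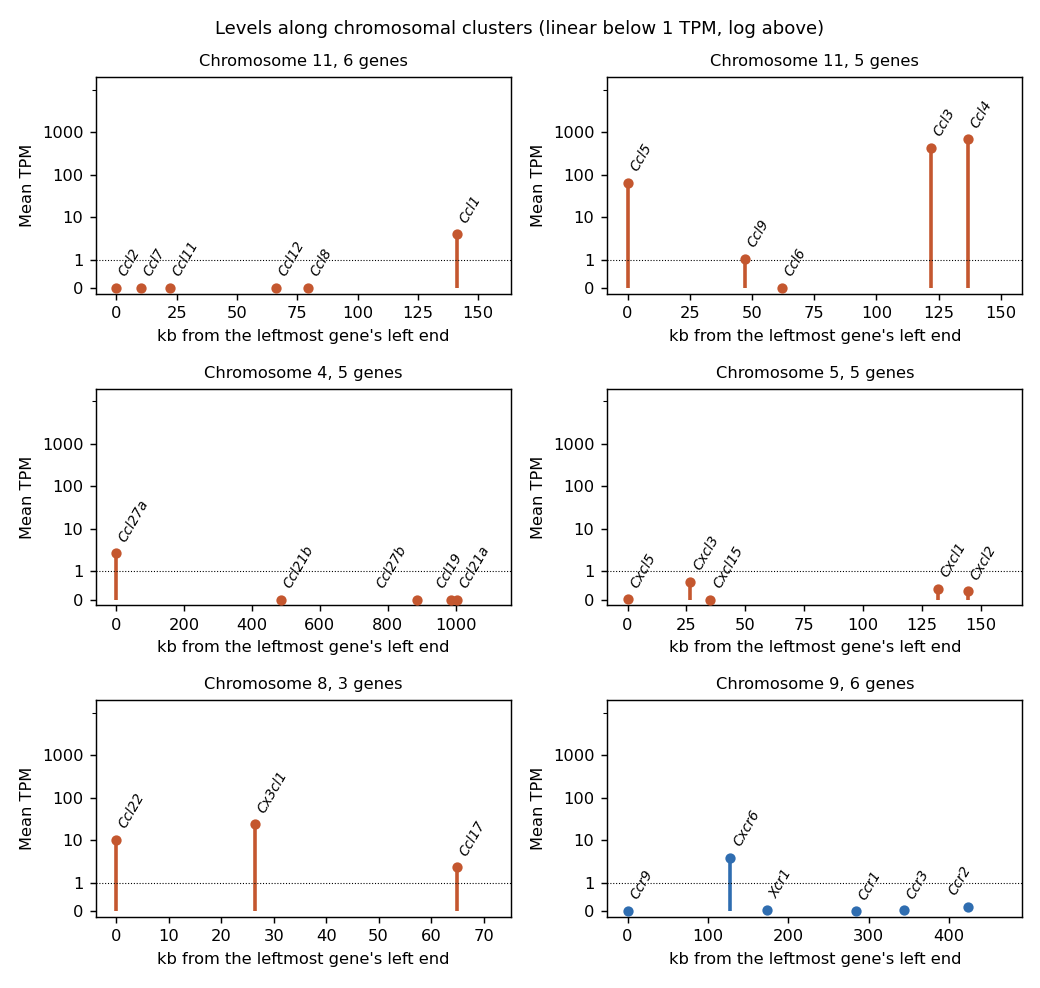
Mean TPM (linear below 1, log above) of members along 6 chromosomal clusters, against distance in kb from the left end of the leftmost gene, with ligands in orange and receptors in blue. The dotted line is 1 TPM. Ccl3 and Ccl4 stand beside Ccl6 at 0, and Cxcr6 is the only receptor drawn above the line on chromosome 9.

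Promoters from RefSeq were matched for 45 of the 58 members, and Ccl4 and Ccl5 were not among them. Over 250 bases upstream and on both strands, the NFAT core GGAAA occurred in 33 of 45 members (73.3%), against 58.8% of all 27025 genes with a promoter, and AP-1 (TGANTCA) in 6 (13.3%), against 7.82%. An NF-kappaB pattern, GGG and CC with any 5 bases between them, occurred in 26 (57.8%), against 48.7%, and TATAAA in 14 (31.1%), against 14.3%. Among members at 1 TPM or more in every library, 8 of 13 held the NFAT core, and among the remaining members 25 of 32 did. These shares describe the letters, without a test.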

How the data were processed

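Gene counts of 4 libraries were deposited by the authors as raw counts, made with featureCounts 1.4.6-p4 on GENCODE M13 exons of mm10, per the file headers. Read pairs were counted with the reverse strand setting, without multiply mapped reads or reads overlapping several genes, per the file headers, so genes with near-identical copies lose counts. The labels call the assay total RNA-seq and name a library protocol for polyadenylated RNA. Symbols came from GENCODE M21 by identifier (99.6% matched).

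Computed here were TPM, CPM and, in edgeR 4.0.16 (R 4.3.3), the goodness of fit of every gene that passed filterByExpr to the trended dispersion, with TMM scaling, an intercept only and Benjamini-Hochberg adjustment at 0.05. Before taking log2 CPM, edgeR's prior count of 2 was added. In simulated counts for this test, a 2-fold change of 200 genes in 1 library was recovered for 76.5% of them, with 5 false calls. A 1.5-fold change was recovered for 47.5%, with 8 false calls. These counts were drawn at the trended dispersion that the test assumes, over genes of all levels, so recovery in the real libraries may differ. Pairs of members were tested with an exact sign-flip permutation test written in Python 3.11.15 with numpy 2.4.6. Rank correlations were taken in scipy 1.17.1. No libraries agreed within sampling noise. Shared 50-base stretches were counted in GENCODE M21 transcripts on either strand.

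The members and all lists were chosen with earlier results of these data known. Every member at 1 TPM or more in some library, every member called variable, and the 6 most abundant signalling genes are named. Alternatives tried were another normalization (DESeq2 1.42.0 size factors), DESeq2 dispersions, no filter, a common dispersion, a GC content and length correction, other pseudocounts and thresholds, and leaving out each library. Counting intervals cover counting error only, since reads carry no molecular identifiers. The values of 1 member are not reported here.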

Additional observations from a re-analysis of the deposited data

How the results depend on the processing

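The number of members called variable was 2, and it ranged from 0 to 2 when 1 library was left out, with 0 without replicate 1 and 0 without replicate 4. Over all genes tested, 66 were called, against 955 with a common dispersion and 41 without replicate 1. Both Ccl3 and Ccl4 stayed called with DESeq2 size factors, DESeq2 dispersions, no filter on low counts, the GC content and length correction, and without replicate 2 or 3. The count of members at 1 TPM or more in every library was 16, and it was 9 at a threshold of 5 TPM. The ligand median minus the receptor median was -0.99 on the log2 scale, against -0.14 with a pseudocount of 1, -1.33 over members at 1 TPM or more in some library, and -0.66 for means. No mean difference between 2 members changed sign under the alternatives tried, but single libraries did with CPM, which is not corrected for length, in place of TPM. Ccr4 minus Ccr8 was then 1.5 and positive in all 4 libraries. Cxcr5 minus Cxcr4 was then -0.47, with replicate 1 positive (126 counts against 87), and Xcl1 minus Xcr1 was 1.31, with 3 counts of each gene in replicate 4. No analysis that pairs libraries of different groups was possible because the labels give 1 group only. Depth limits members under 1 TPM most, since many rest on fewer than 10 counts in a library.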

Other observations

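Il2, the growth factor that activated T cells release, is no member of the family and was singled out after its values were seen. It had 724, 629, 598 and 532 TPM in replicates 1 to 4, and so was highest in replicate 1 and lowest in replicate 4, as were Ccl3 and Ccl4.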
